A study of Mus musculus with 9 samples.

Results

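The genes described here are 49 members of fatty acid oxidation and of the peroxisome, named by symbol, among 20659 genes with a symbol on the arrays. Their 61 probes, taken by RefSeq accession out of 39429, all lay well above background on all 9 arrays, so every member was tested. By compartment 19 members are mitochondrial, 21 are peroxisomal, 3 work in both and 6 serve fatty acid uptake, activation and regulation. The study measured kidney cortex RNA of mice with one-colour Agilent microarrays after unilateral ureteral obstruction (UUO), in which the right ureter is ligated for 5 days, a model of renal inflammation and fibrosis. The 4 groups were wild-type healthy kidneys (2 arrays), wild-type UUO kidneys (2 arrays), Notch3-/- healthy kidneys (2 arrays) and Notch3-/- UUO kidneys (3 arrays). Notch3-/- mice lack a Notch receptor known from vascular smooth muscle cells and pericytes. All animals were 12 to 16 weeks old, and the design text names the untreated left kidneys as the comparison. The strain, the knockout allele and which animal gave which array are not given in the sources used here, so the p-values measure the spread between these arrays, which may be technical.

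Kidney proximal tubule cells are known to cover most of their energy need by burning fatty acids. In mitochondria, acyl chains enter through the carnitine shuttle, are shortened by repeated dehydrogenation, hydration, dehydrogenation and thiolysis, and pass their electrons on through the electron transfer flavoprotein. Peroxisomes shorten very long, branched and dicarboxylic chains, break down hydrogen peroxide with catalase, and import their enzymes with the help of peroxins. The nuclear receptor Ppara and the co-activator Ppargc1a are known to drive many of these genes in kidney and liver.

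Levels below are log2 signals relative to each array's 75th percentile, and differences are log2 fold changes with their standard error (SE) from limma, fitted over all 23877 genes and unnamed transcripts. Adjusted p-values are Benjamini-Hochberg values over all of them, and a gene is said to fall or rise where its adjusted p is under 0.05. Between 65.3% and 73.2% of spots per array lay well above background, no spot was saturated, and the number of arrays limits the precision. Notch3 itself read -0.26 and -0.50 on the wild-type healthy arrays and 0.92 and 0.68 on the wild-type UUO arrays, against -5.39 to -3.63 on the 5 Notch3-/- arrays, as the labels have it. Notch3-/- UUO replicates 2 and 3 stood apart from the other arrays. They carried Xist at 0.18 and 0.00, which lay at -5.71 or lower on the other 7 arrays, although the design text speaks of animals matched for sex. They also held adrenal cortex transcripts, with Cyp11b1 at 4.69 and 5.15 against -4.13 or lower elsewhere. Adipocyte transcripts varied from array to array within groups, with the brown fat gene Ucp1 between -8.07 and 5.39. For the members, a Notch3-/- difference of UUO against healthy that moved by more than 1.5 times without these 2 arrays is given both ways. The fit without them rests on 1 Notch3-/- UUO array. For genes that are not members, and for single differences between genotypes or responses, only the fit of all arrays is given. These may depend on the 2 arrays as much. The arrays of one genotype were scanned at other times than those of the other. Slides 1, 2 and 3 held only wild-type arrays, and slides 4 and 5 only Notch3-/- arrays. For comparisons between genotypes neither the scan nor the slide can be told apart from the genotype. In wild type no slide held both healthy and UUO arrays, the UUO arrays lying on slide 3 and the healthy arrays on slides 1 and 2. There the slide cannot be told apart from obstruction. In Notch3-/- kidneys slide 4 held the 3 UUO arrays and healthy replicate 1.

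After obstruction most members were lower in both genotypes and none was higher by the test. In wild-type kidneys 40 of 49 members fell, beside 11.8% of all genes tested, and 0 rose, beside 14.1% of all genes. In Notch3-/- kidneys 39 of 49 fell, beside 13.9% of all genes, and 0 rose, beside 13.3%. The median member changed by -1.09 in both genotypes, while the median over all genes tested was 0.04 in wild type and -0.07 in Notch3-/-. More than 2-fold lower were 31 members in wild type and 26 in Notch3-/-, beside a share of about 0.09 and 0.085 of all genes tested. Without Notch3-/- UUO replicates 2 and 3 the median member changed by -0.71 in Notch3-/-, less than 2-fold. On 48 of 49 members both wild-type UUO arrays lay below both wild-type healthy arrays, as did 31.2% of all genes. On 47 of 49 members all 3 Notch3-/- UUO arrays lay below both Notch3-/- healthy arrays, as did 35.3% of all genes. In bulk RNA, fewer cells of a type and less RNA per cell cannot be told apart.

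**Figure D1:**
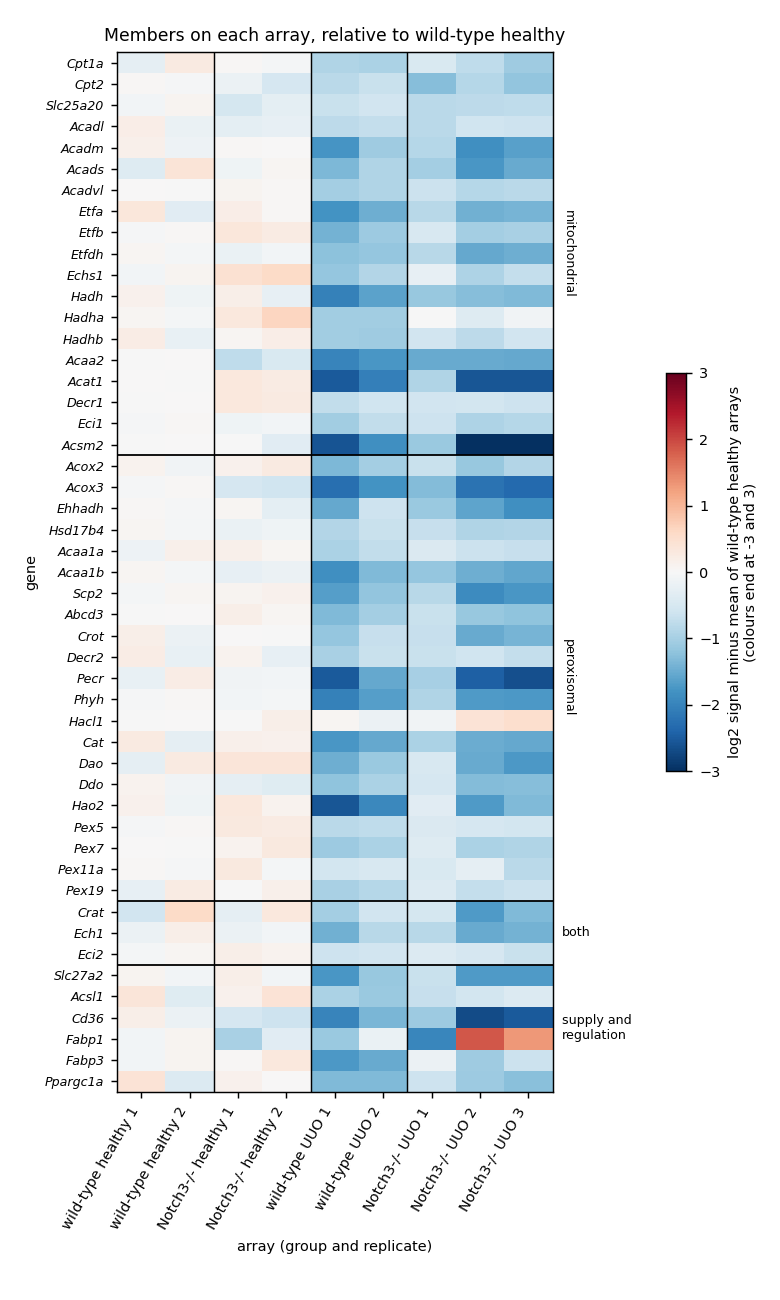
Log2 signal of the 49 members (rows, by class) on each of the 9 arrays (columns), minus the mean of the wild-type healthy arrays. Blue marks lower and red higher signal, and the UUO columns are blue for nearly every gene except Hacl1 and, on Notch3-/- UUO replicates 2 and 3, Fabp1.

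By compartment, 18 of 19 mitochondrial members and 16 of 21 peroxisomal members fell in wild-type kidneys, with medians of -1.05 and -1.09. In Notch3-/- kidneys 17 of 19 and 17 of 21 fell, with medians of -0.92 and -1.13. In both genotypes 35 members fell, 5 passed the threshold in wild type alone, 4 in Notch3-/- alone and 5 in neither. Of the 12 members with a second probe, the second probe fell for 8 in wild type and for 7 in Notch3-/- (adjusted over all probes), and all 12 lay below 0 in both. The second probe did not pass where the first did for Acox3 and Cpt2 in both genotypes, for Ddo in wild type and for Ppargc1a in Notch3-/-. The plot of members against all genes tested shows the mitochondrial and peroxisomal curves lying close to each other and to the left of the curve for all genes. The counts depend on single arrays: without wild-type UUO replicate 1, 3 mitochondrial and 1 peroxisomal members fell, and without wild-type UUO replicate 2, 7 and 10. Without wild-type healthy replicate 1, 12 and 10 fell, and without replicate 2, 11 and 10. In Notch3-/- kidneys 2 and 1 fell without healthy replicate 1, 4 and 1 without healthy replicate 2, 7 and 5 without UUO replicate 2, and 4 and 5 without UUO replicate 3. Without UUO replicate 1, 17 and 18 fell. The fit without UUO replicates 2 and 3 together rests on 1 Notch3-/- UUO array, and its median member changed by -0.71. In that fit all 49 members lay below 0, and 22 differences moved by more than 1.5 times, 21 of them to a smaller size. With the slide as a random block 9 mitochondrial and 8 peroxisomal members fell in wild type and 17 and 18 in Notch3-/-, and on slide 4 alone 1 and 0 fell in Notch3-/-, with medians of -0.94 and -1.15. The share of all genes called in each of these fits is not given here. The counts therefore do not show whether members lost calls more than other genes did. The medians over all members moved less, between -0.71 and -1.24 over these fits.

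**Figure D2:**
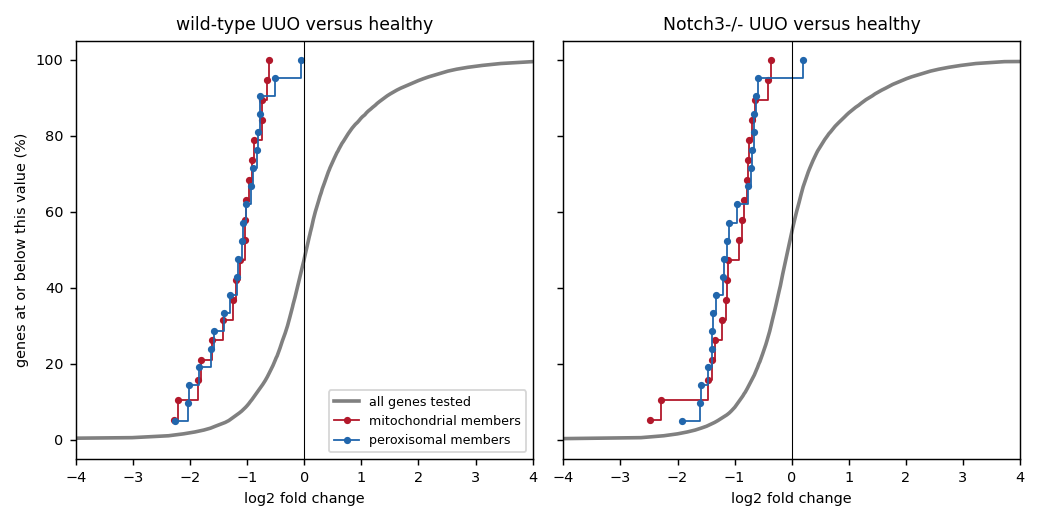
Cumulative share of genes (y axis, percent) at or below a log2 fold change of UUO against healthy (x axis), in wild-type kidneys (left) and Notch3-/- kidneys (right), for all genes tested, mitochondrial members and peroxisomal members. The median over all genes is 0.04 and -0.07, and the mitochondrial medians are -1.05 and -0.92.

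The carnitine shuttle brings acyl chains into mitochondria. Cpt1a, whose product sits in the outer membrane and controls the rate of entry, read 3.40 and 3.91 (wild type) and 3.68 and 3.60 (Notch3-/-) in healthy kidneys, and 2.75 and 2.71 (wild type) and 3.19, 2.89 and 2.59 (Notch3-/-) after UUO. All 5 UUO arrays lay below all 4 healthy arrays. Cpt1a fell by 0.93 ± 0.24 in wild type (limma adjusted p = 0.0332) and by 0.75 ± 0.22 in Notch3-/- (adjusted p = 0.0451). Its partner of the inner membrane, Cpt2, fell in wild type (-0.74 ± 0.19) and in Notch3-/- (-0.77 ± 0.18). The translocase Slc25a20, which exchanges acylcarnitine for carnitine, read -0.32 and -0.14 (wild type) and -0.76 and -0.53 (Notch3-/-) in healthy kidneys, and -0.90 and -0.81 (wild type) and -1.03, -1.01 and -0.98 (Notch3-/-) after UUO. Its Notch3-/- healthy arrays already lay below the wild-type healthy arrays, and it fell by 0.63 ± 0.14 in wild type (adjusted p = 0.0207), while the Notch3-/- difference of -0.36 ± 0.13 did not pass (adjusted p = 0.0734). The difference of Cpt1a in Notch3-/- came to -0.45 without UUO replicates 2 and 3.

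The acyl-CoA dehydrogenases catalyse the first step of each round, each for its own chain lengths, and all 4 fell in wild type and 3 of 4 in Notch3-/-. Acadm, for medium chains, read 5.78 and 5.49 (wild type) and 5.66 and 5.64 (Notch3-/-) in healthy kidneys, and 3.85 and 4.56 (wild type) and 4.76, 3.78 and 4.0 (Notch3-/-) after UUO. Healthy arrays spanned 5.49 to 5.78, and within each UUO group the arrays spread by more than that. Acadm fell by 1.42 ± 0.36 in wild type (adjusted p = 0.0317) and by 1.47 ± 0.33 in Notch3-/- (adjusted p = 0.0233). Acadvl, for very long chains, was tighter, at 5.70 and 5.66 (wild type) and 5.76 and 5.71 (Notch3-/-) in healthy kidneys, and 4.66 and 4.76 (wild type) and 5.04, 4.82 and 4.86 (Notch3-/-) after UUO. It fell by 0.96 ± 0.13 (adjusted p = 0.00466) and 0.83 ± 0.12 (adjusted p = 0.00616). Acads, for short chains, fell by 1.12 ± 0.33 and 1.39 ± 0.30. The long-chain enzyme gene Acadl read 2.95 and 2.56 (wild type) and 2.47 and 2.51 (Notch3-/-) in healthy kidneys, and 1.97 and 2.04 (wild type) and 1.94, 2.15 and 2.14 (Notch3-/-) after UUO. No UUO array reached a healthy one, and Acadl fell by 0.75 ± 0.17 in wild type (adjusted p = 0.0212), but -0.41 ± 0.15 in Notch3-/- did not pass (adjusted p = 0.0859). The difference of Acadm in Notch3-/- came to -0.89 without UUO replicates 2 and 3.

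Electrons leave these enzymes through the electron transfer flavoprotein, encoded by Etfa and Etfb, and its oxidoreductase Etfdh. All 3 genes fell more than 2-fold in both genotypes in the fit of all arrays. Etfa changed by -1.62 ± 0.30 in wild type and -1.34 ± 0.27 in Notch3-/-, Etfb by -1.25 ± 0.21 and -1.11 ± 0.20, and Etfdh by -1.20 ± 0.24 and -1.13 ± 0.22. Their limma adjusted p-values lay between 0.00988 and 0.018. Without UUO replicates 2 and 3 the Notch3-/- differences were -0.94 for Etfa, -0.78 for Etfb and -0.70 for Etfdh, each less than 2-fold.

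The 6 genes for hydration, the second dehydrogenation and thiolysis all fell in both genotypes. Acaa2, the mitochondrial thiolase that ends each round, read 5.38 and 5.41 (wild type) and 4.63 and 4.94 (Notch3-/-) in healthy kidneys, and 3.42 and 3.66 (wild type) and 3.88, 3.88 and 3.86 (Notch3-/-) after UUO. All UUO arrays lay below all healthy arrays, and the Notch3-/- healthy arrays lay below the wild-type healthy arrays. Acaa2 fell by 1.86 ± 0.15 in wild type (adjusted p = 0.00111) and by 0.92 ± 0.14 in Notch3-/- (adjusted p = 0.00746). Hadh, the hydroxyacyl-CoA dehydrogenase, read 5.01 and 4.78 (wild type) and 5.07 and 4.65 (Notch3-/-) in healthy kidneys, and 2.88 and 3.28 (wild type) and 3.75, 3.62 and 3.56 (Notch3-/-) after UUO. All UUO arrays lay below all healthy arrays, with the wild-type UUO arrays lowest. It fell by 1.82 ± 0.21 (adjusted p = 0.00278) and 1.22 ± 0.19 (adjusted p = 0.00861). Acat1, which cleaves acetoacetyl-CoA and also serves ketone body use, read 4.43 and 4.43 (wild type) and 4.74 and 4.66 (Notch3-/-) in healthy kidneys, and 1.91 and 2.37 (wild type) and 3.53, 1.86 and 1.86 (Notch3-/-) after UUO. Notch3-/- UUO replicate 1 kept a level between the healthy arrays and the other UUO arrays. Acat1 fell by 2.29 ± 0.55 in wild type (adjusted p = 0.026) and by 2.29 ± 0.50 in Notch3-/- (adjusted p = 0.0213). The hydratase Echs1 fell by 1.03 ± 0.24 and 1.15 ± 0.22, and the trifunctional protein subunits Hadha and Hadhb fell by 1.05 ± 0.18 and 1.05 ± 0.18 in wild type and by 0.64 ± 0.17 and 0.77 ± 0.16 in Notch3-/-. The Notch3-/- difference of Acat1 was -1.18 without UUO replicates 2 and 3.

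Unsaturated chains need extra enzymes, of which Decr1, the dienoyl-CoA reductase, read 5.31 and 5.33 (wild type) and 5.62 and 5.59 (Notch3-/-) in healthy kidneys, and 4.58 and 4.73 (wild type) and 4.75, 4.76 and 4.69 (Notch3-/-) after UUO. The UUO arrays lay between 4.58 and 4.76 and the healthy arrays between 5.31 and 5.62. Decr1 fell by 0.66 ± 0.12 in wild type (adjusted p = 0.0115) and by 0.87 ± 0.11 in Notch3-/- (adjusted p = 0.00349). The isomerase Eci1 fell by 0.89 ± 0.17 and 0.70 ± 0.15. Acsm2, a synthetase that activates medium chains and is abundant in kidney, read 7.26 and 7.27 (wild type) and 7.26 and 6.92 (Notch3-/-) in healthy kidneys, and 4.69 and 5.42 (wild type) and 6.15, 3.93 and 3.75 (Notch3-/-) after UUO. It showed the widest spread among UUO arrays of the mitochondrial members, from 3.75 to 6.15. Its difference of -2.21 ± 0.76 in wild type did not pass (adjusted p = 0.0741), and it fell by 2.48 ± 0.70 in Notch3-/- (adjusted p = 0.0403). Acsm2 and the pair Acaa1a and Acaa1b belong to families of close copies, and cross-hybridisation of their probes was not tested. The Notch3-/- difference of Acsm2 was -0.95 without UUO replicates 2 and 3.

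**Figure D3:**
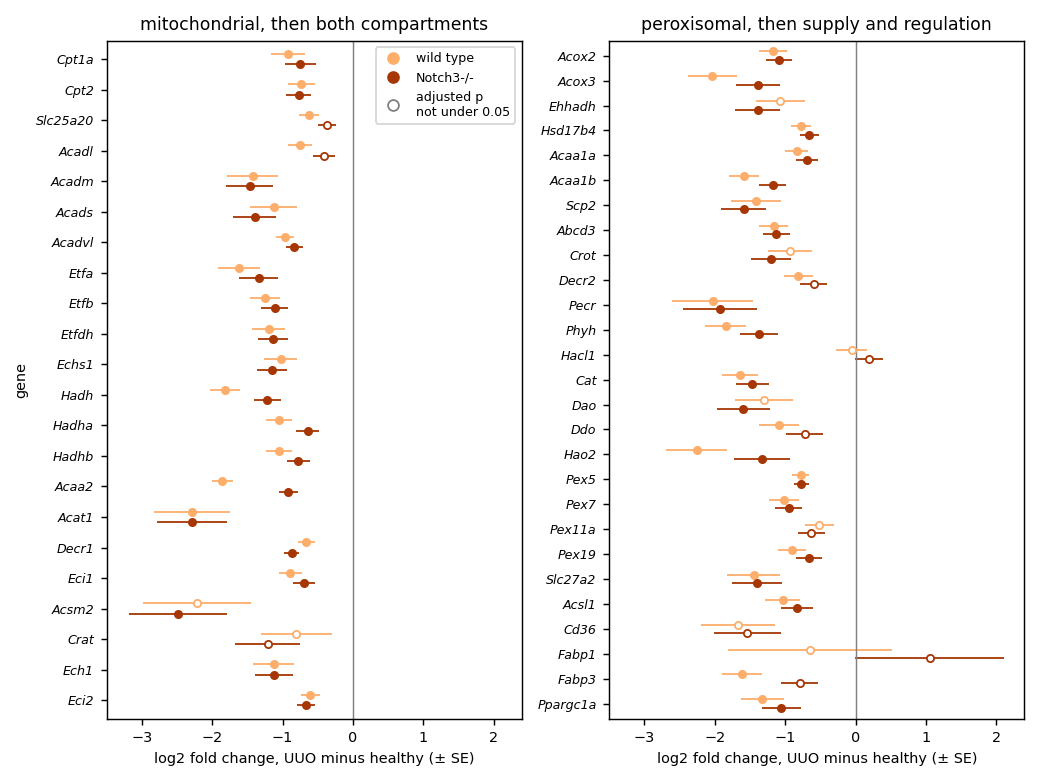
Log2 fold change of UUO against healthy (x axis, points, with SE bars) for each member (y axis) in wild-type and Notch3-/- kidneys. Filled points have a limma adjusted p under 0.05 (40 members in wild type, 39 in Notch3-/-), and all points but Hacl1 and Fabp1 in Notch3-/- lie left of 0.

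Peroxisomal beta-oxidation starts with acyl-CoA oxidases and ends with thiolases. Of its 7 members 6 fell in wild type and 7 in Notch3-/-. Acaa1b, a thiolase, read 3.84 and 3.74 (wild type) and 3.55 and 3.62 (Notch3-/-) in healthy kidneys, and 1.95 and 2.46 (wild type) and 2.64, 2.33 and 2.24 (Notch3-/-) after UUO. The highest UUO array, at 2.64, lay below the lowest healthy array, at 3.55. Acaa1b fell by 1.58 ± 0.21 in wild type (adjusted p = 0.00449) and by 1.18 ± 0.19 in Notch3-/- (adjusted p = 0.00993), and its close copy Acaa1a by 0.84 ± 0.17 and 0.69 ± 0.15. Ehhadh, the bifunctional enzyme for dicarboxylic chains, read 3.59 and 3.52 (wild type) and 3.61 and 3.25 (Notch3-/-) in healthy kidneys, and 2.03 and 2.94 (wild type) and 2.44, 1.96 and 1.73 (Notch3-/-) after UUO. The wild-type UUO arrays differed from each other by more than the healthy arrays did. Its wild-type difference of -1.07 ± 0.35 did not pass (adjusted p = 0.0631), and it fell by 1.39 ± 0.32 in Notch3-/- (adjusted p = 0.0239). The oxidases for branched chains, Acox2 and Acox3, fell by 1.18 ± 0.20 and 2.04 ± 0.35 in wild type and by 1.09 ± 0.18 and 1.39 ± 0.32 in Notch3-/-. A second, dimmer probe of Acox3 gave -0.16 and -0.75, and neither passed. The other bifunctional enzyme, Hsd17b4, fell by 0.78 ± 0.14 and 0.65 ± 0.13, and Scp2, a thiolase and sterol carrier for branched chains, by 1.42 ± 0.35 and 1.59 ± 0.32. On Notch3-/- UUO replicate 1 alone, without the other 2 arrays, the Notch3-/- difference was -0.74 for Acox3 and -0.94 for Scp2.

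Among genes for entry, exit and reduction, Abcd3, a transporter of the peroxisomal membrane, fell by 1.17 ± 0.21 and 1.13 ± 0.19, and the reductase Pecr, which read 6.29 and 6.76 (wild type) and 6.43 and 6.43 (Notch3-/-) in healthy kidneys, and 4.01 and 4.98 (wild type) and 5.53, 4.07 and 3.89 (Notch3-/-) after UUO, by 2.03 ± 0.58 and 1.93 ± 0.53. Notch3-/- UUO replicate 1 held the highest Pecr level of the 5 UUO arrays, and without replicates 2 and 3 the Notch3-/- difference was -0.89. Crot, which loads shortened chains onto carnitine, had -0.93 ± 0.31 in wild type, which did not pass (adjusted p = 0.0687), and fell by 1.20 ± 0.28 in Notch3-/-. Decr2, the peroxisomal dienoyl-CoA reductase, fell by 0.82 ± 0.21 in wild type, and -0.60 ± 0.19 in Notch3-/- did not pass (adjusted p = 0.0562). Alpha-oxidation removes 1 carbon from branched chains, and its 2 members differed. Phyh, the hydroxylase of the first step, fell by 1.85 ± 0.29 (adjusted p = 0.00777) and 1.38 ± 0.27 (adjusted p = 0.0164). Hacl1, the lyase of the next step, read 1.58 and 1.61 (wild type) and 1.58 and 1.77 (Notch3-/-) in healthy kidneys, and 1.65 and 1.43 (wild type) and 1.50, 2.01 and 2.10 (Notch3-/-) after UUO. Healthy and UUO arrays overlapped in both genotypes, and the differences of -0.06 ± 0.22 (adjusted p = 0.877) and 0.19 ± 0.20 (adjusted p = 0.509) did not pass. Both changed sign under other settings (0.05 with the percentile taken over probes above background on all arrays in wild type, and -0.17 without Notch3-/- UUO replicates 2 and 3). In the same fit Crot had -0.69 and Phyh -0.84.

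Peroxisomal oxidases make hydrogen peroxide, which catalase breaks down. Cat, the catalase gene, read 3.41 and 2.88 (wild type) and 3.31 and 3.27 (Notch3-/-) in healthy kidneys, and 1.40 and 1.60 (wild type) and 2.19, 1.67 and 1.60 (Notch3-/-) after UUO. The lowest healthy array, at 2.88, lay above the highest UUO array, at 2.19. Cat fell by 1.64 ± 0.26 in wild type (adjusted p = 0.00749) and by 1.47 ± 0.24 in Notch3-/- (adjusted p = 0.00923), and its second probe gave -2.11 and -1.67. Hao2, an oxidase of 2-hydroxy acids in kidney, read 3.71 and 3.47 (wild type) and 3.91 and 3.69 (Notch3-/-) in healthy kidneys, and 1.02 and 1.65 (wild type) and 3.25, 1.89 and 2.28 (Notch3-/-) after UUO. The 3 Notch3-/- UUO arrays spread from 1.89 to 3.25, all above both wild-type UUO arrays. Hao2 fell by 2.26 ± 0.44 in wild type (adjusted p = 0.0145) and by 1.33 ± 0.40 in Notch3-/- (adjusted p = 0.0493). Dao, the D-amino acid oxidase, had -1.30 ± 0.41 in wild type (adjusted p = 0.0596, not passing) and fell by 1.60 ± 0.38 in Notch3-/-. Ddo, the D-aspartate oxidase, fell by 1.09 ± 0.29 in wild type and had -0.72 ± 0.26 in Notch3-/- (adjusted p = 0.0846, not passing). Without Notch3-/- UUO replicates 2 and 3 the Notch3-/- differences were -0.55 for Hao2, -0.84 for Dao and -0.19 for Ddo.

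Peroxins build the organelle. Pex5, the import receptor for enzymes with a C-terminal signal, read 1.23 and 1.31 (wild type) and 1.57 and 1.51 (Notch3-/-) in healthy kidneys, and 0.46 and 0.51 (wild type) and 0.83, 0.76 and 0.73 (Notch3-/-) after UUO. Arrays of a group lay close together, and the UUO arrays lay below the healthy arrays of either genotype. Pex5 fell by 0.78 ± 0.12 in wild type (adjusted p = 0.00646) and by 0.77 ± 0.11 in Notch3-/- (adjusted p = 0.0054). Pex7, the receptor for the N-terminal signal, fell by 1.02 ± 0.21 and 0.95 ± 0.19, and Pex19, a chaperone of peroxisomal membrane proteins, by 0.91 ± 0.20 and 0.66 ± 0.18. Pex11a, a factor of peroxisome division, read 3.46 and 3.38 (wild type) and 3.71 and 3.36 (Notch3-/-) in healthy kidneys, and 2.87 and 2.93 (wild type) and 2.95, 3.16 and 2.61 (Notch3-/-) after UUO. Its UUO arrays were all below its healthy arrays, yet the differences of -0.52 ± 0.21 (adjusted p = 0.113) and -0.63 ± 0.19 (adjusted p = 0.05) did not pass. The Notch3-/- difference of Pex7 was -0.59 without UUO replicates 2 and 3.

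**Figure D4:**
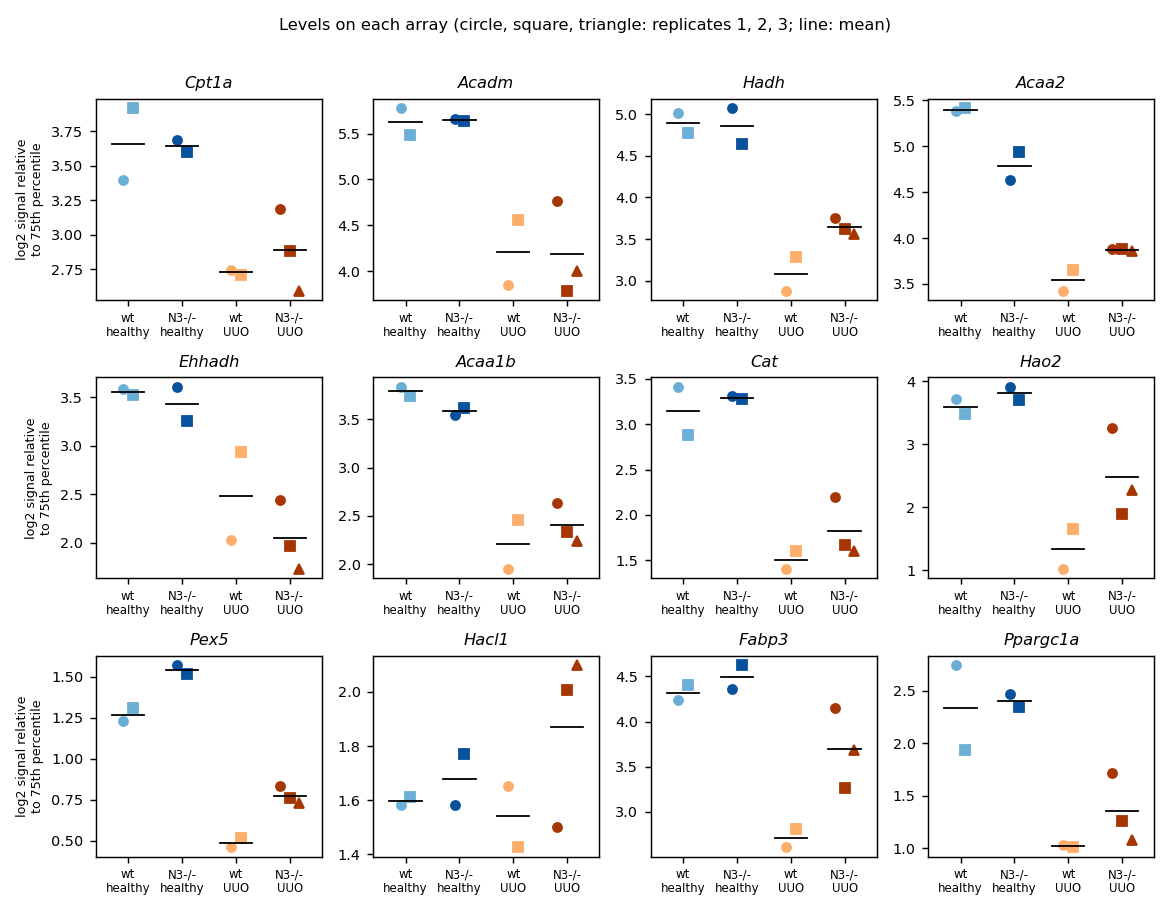
Log2 signal relative to the 75th percentile (y axis, its own scale for each gene) on every array of the 4 groups (x axis) for 12 members, with a line at each group mean. Wild type is written wt and Notch3-/- is written N3-/-. The 2 UUO groups lie below both healthy groups in every panel except Hacl1.

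Of the 3 members in both compartments, Eci2, an enoyl-CoA isomerase, read 4.15 and 4.29 (wild type) and 4.39 and 4.33 (Notch3-/-) in healthy kidneys, and 3.59 and 3.64 (wild type) and 3.81, 3.71 and 3.56 (Notch3-/-) after UUO. The UUO arrays of both genotypes lay together, below all healthy arrays. Eci2 fell by 0.61 ± 0.14 (adjusted p = 0.0221) and 0.67 ± 0.12 (adjusted p = 0.0147). Ech1, a dienoyl-CoA isomerase, read 3.98 and 4.31 (wild type) and 3.98 and 4.06 (Notch3-/-) in healthy kidneys, and 2.72 and 3.32 (wild type) and 3.31, 2.64 and 2.73 (Notch3-/-) after UUO. Its UUO arrays lay below its healthy arrays, and it fell by 1.13 ± 0.29 (adjusted p = 0.0334) and 1.13 ± 0.27 (adjusted p = 0.0265). Crat, the carnitine acetyltransferase, was variable, at -3.14 and -2.0 (wild type) and -2.83 and -2.25 (Notch3-/-) in healthy kidneys, and -3.59 and -3.15 (wild type) and -3.10, -4.27 and -3.88 (Notch3-/-) after UUO. The wild-type healthy arrays differed from each other by more than the wild-type group means did, and neither -0.80 ± 0.50 (adjusted p = 0.278) nor -1.21 ± 0.46 (adjusted p = 0.0917) passed. Without Notch3-/- UUO replicates 2 and 3 the Notch3-/- difference was -0.71 for Ech1 and -0.56 for Crat.

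Of the 5 members for fatty acid supply 3 fell in wild type and 2 in Notch3-/-. The transport protein and synthetase Slc27a2 fell by 1.45 ± 0.38 and 1.40 ± 0.35, and the long-chain synthetase Acsl1, at 3.98 and 3.25 (wild type) and 3.75 and 4.03 (Notch3-/-) in healthy kidneys, and 2.65 and 2.50 (wild type) and 2.93, 3.06 and 3.19 (Notch3-/-) after UUO, fell by 1.04 ± 0.25 (adjusted p = 0.027) and 0.83 ± 0.23 (adjusted p = 0.0379). Cd36, a fatty acid translocase of the plasma membrane, read 3.0 and 2.65 (wild type) and 2.32 and 2.21 (Notch3-/-) in healthy kidneys, and 0.86 and 1.46 (wild type) and 1.74, 0.14 and 0.31 (Notch3-/-) after UUO. Every UUO array lay below every healthy array, but the UUO arrays spread from 0.14 to 1.74, and neither -1.67 ± 0.52 (adjusted p = 0.0573) nor -1.54 ± 0.48 (adjusted p = 0.0539) passed. Fabp3, the heart-type fatty acid binding protein, read 4.24 and 4.40 (wild type) and 4.36 and 4.63 (Notch3-/-) in healthy kidneys, and 2.60 and 2.81 (wild type) and 4.15, 3.26 and 3.69 (Notch3-/-) after UUO. All Notch3-/- UUO arrays lay above both wild-type UUO arrays. Fabp3 fell by 1.61 ± 0.28 in wild type (adjusted p = 0.0108), and -0.79 ± 0.26 in Notch3-/- did not pass (adjusted p = 0.061). Without Notch3-/- UUO replicates 2 and 3 the Notch3-/- differences were -0.72 for Slc27a2, -0.53 for Cd36 and -0.34 for Fabp3.

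Fabp1, the liver-type binding protein, read -3.43 and -3.24 (wild type) and -4.30 and -3.67 (Notch3-/-) in healthy kidneys, and -4.44 and -3.53 (wild type) and -5.29, -1.48 and -2.03 (Notch3-/-) after UUO. The high values belonged to Notch3-/- UUO replicates 2 and 3, the arrays with Xist and adrenal transcripts, and their part in the level was not tested. Neither -0.65 ± 1.16 in wild type (adjusted p = 0.724) nor 1.05 ± 1.06 in Notch3-/- (adjusted p = 0.494) passed. Without Notch3-/- UUO replicate 1 the Notch3-/- difference was 2.23 (limma adjusted p = 0.00731), and without replicates 2 and 3 it was -1.31 and did not pass.

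The co-activator Ppargc1a, which is known to raise mitochondrial gene expression, read 2.75 and 1.93 (wild type) and 2.47 and 2.34 (Notch3-/-) in healthy kidneys, and 1.03 and 1.01 (wild type) and 1.72, 1.26 and 1.08 (Notch3-/-) after UUO. All UUO arrays lay below all healthy arrays, the wild-type healthy arrays being the most spread. Ppargc1a fell by 1.32 ± 0.31 in wild type (adjusted p = 0.0236) and by 1.05 ± 0.28 in Notch3-/- (adjusted p = 0.0345). Without Notch3-/- UUO replicates 2 and 3 the Notch3-/- difference was -0.69. A second, dimmer probe gave -1.52 in wild type (limma adjusted p over all probes = 0.0115) and -0.66 in Notch3-/-, which did not pass (0.0938), and its Notch3-/- UUO replicate 1, at -1.80, lay above wild-type healthy replicate 2, at -2.05.

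Since the members moved together, their promoters were searched for the element that Ppara and its partner receptor are known to bind, a direct repeat of AGGTCA with 1 base between, written AGGTCANAGGTCA and read on both strands. RefSeq promoters (GRCm38.p6) were found for 43 of the 49 members, 51 promoters in all, and the 250 bases before each start were read. With up to 2 mismatches the repeat occurred in 5 of the 51 promoters (9.80%) and in 1063 of 32851 promoters of all genes (3.24%). With up to 1 mismatch it occurred in 1 (1.96%) and 159 (0.484%), and without mismatch in 0 and 11 (0.0335%). A match is a description of letters, not of binding. The 5 stretches are printed 5′ to 3′ on the strand of the gene, with the repeat in capitals, because they are the only matches among the members that fell together (Cat, Echs1, Etfa) and the members that did not pass (Cd36, Fabp1).
Cat, chr2:103485315-103485387, minus strand: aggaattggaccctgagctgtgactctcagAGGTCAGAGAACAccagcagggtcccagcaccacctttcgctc
Echs1, chr7:140116462-140116534, minus strand: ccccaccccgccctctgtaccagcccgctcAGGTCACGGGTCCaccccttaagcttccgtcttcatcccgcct
Etfa, chr9:55512278-55512350, minus strand: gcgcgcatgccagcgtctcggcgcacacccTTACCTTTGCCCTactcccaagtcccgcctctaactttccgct
Cd36, chr5:17835917-17835989, minus strand: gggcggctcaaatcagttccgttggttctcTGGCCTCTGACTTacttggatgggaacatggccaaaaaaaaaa
Fabp1, chr6:71199782-71199854, plus strand: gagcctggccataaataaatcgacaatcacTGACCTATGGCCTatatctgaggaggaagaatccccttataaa
The repeat starts 204, 83, 77, 63 and 67 bases before the start of Cat, Echs1, Etfa, Cd36 and Fabp1, in this order. In Fabp1 it has 1 mismatch, in the other 4 it has 2, and in Etfa, Cd36 and Fabp1 it is read on the opposite strand, so that its letters appear reversed and complemented.

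Between the genotypes 0 members passed in limma. Among UUO kidneys 0 of 49 members differed, beside 0.285% of all genes tested. An unadjusted p under 0.05 was found for 7 of 49 members and for 4004 of 23877 genes. The differences of Notch3-/- UUO minus wild-type UUO ranged from -0.45 to 1.14, with a median SE of 0.22, and 36 of 49 lay above 0. Below 0 lay 13 members and 50.6% of all genes tested. On 14 of 49 members all 3 Notch3-/- UUO arrays lay above both wild-type UUO arrays, beside 20.7% of all genes, and on 2 members all lay below, beside 22.9%. The smallest p belonged to Hadha, the alpha subunit of the trifunctional protein, which read 0.74 and 0.62 (wild type) and 0.99 and 1.32 (Notch3-/-) in healthy kidneys, and -0.37 and -0.37 (wild type) and 0.68, 0.28 and 0.57 (Notch3-/-) after UUO. All 3 Notch3-/- UUO arrays lay above the wild-type UUO arrays, and Notch3-/- UUO replicate 1 reached the wild-type healthy level. Hadha was 0.88 ± 0.17 higher in Notch3-/- UUO, which did not pass (adjusted p = 0.0894). The next by p were Fabp3 (0.99 ± 0.26, adjusted p = 0.155), Hadh (0.56 ± 0.19, 0.221), Hao2 (1.14 ± 0.40, 0.232) and Pex5 (0.29 ± 0.11, 0.252), none of which passed. With array weights 5 members passed, among them Hadha, Fabp3 and Pex5.

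In healthy kidneys 0 of 49 members differed between the genotypes, beside 0.511% of all genes. In limma 4 of 49 members and 4229 of 23877 genes had an unadjusted p under 0.05. The differences ranged from -0.65 to 0.52, with a median SE of 0.24. The 5 smallest p belonged to Acaa2 (-0.61 ± 0.15, adjusted p = 0.13), Slc25a20 (-0.42 ± 0.14, 0.201), Hadha (0.47 ± 0.18, 0.247), Decr1 (0.29 ± 0.12, 0.27) and Pex5 (0.28 ± 0.12, 0.286), and none passed. Decr1 turned to -0.02 when the probes of a gene were averaged.

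The difference of the responses, the Notch3-/- change minus the wild-type change, passed for 0 of 49 members, as it did for 0% of all genes tested. At an unadjusted p under 0.05 there were 1 member and 1704 genes, and the smallest adjusted p over all genes was 0.242. This difference lay above 0 for 35 of 49 members (71.4%) beside 42.8% of all genes tested, for 12 of 19 mitochondrial and for 16 of 21 peroxisomal members. The tally depended on single arrays, with 25 of 49 without Notch3-/- UUO replicate 1 (10 of 21 peroxisomal) and 26 without wild-type UUO replicate 1, but 44 without Notch3-/- UUO replicates 2 and 3. The member with the smallest p was Acaa2 (0.94 ± 0.21, adjusted p = 0.395), followed by Fabp3 (0.82 ± 0.38), Hadh (0.60 ± 0.28), Hadha (0.41 ± 0.25) and Hao2 (0.93 ± 0.59). The median SE of this difference over the members was 0.32.

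Arrays of a group differed in how far the members had fallen. Relative to the Notch3-/- healthy mean, the median member lay at -0.71 on Notch3-/- UUO replicate 1 and at -1.24 on both other replicates. Replicate 1 was the highest of the 3 for 40 of 49 members (81.6%), against 41.8% of all genes tested, yet it lay below both Notch3-/- healthy arrays for 49 of 49. In wild type, UUO replicate 1 lay below replicate 2 for 44 of 49 members (89.8%), against 49.5% of all genes. Markers of the proximal tubule followed the same order of arrays. Of 16 such markers 12 fell in wild type (median -1.92), beside 11.8% of all genes tested, and 15 in Notch3-/- (median -1.83), beside 13.9%. All 16 were highest on Notch3-/- UUO replicate 1, where their median was -0.94 against -2.33 and -2.21 on replicates 2 and 3. The log2 of their summed signal ran from 9.95 to 10.34 on healthy arrays, 7.94 and 8.54 on wild-type UUO arrays and 9.30, 7.90 and 7.97 on Notch3-/- UUO arrays. That of the members ran from 10.43 to 10.52, then 8.86 and 9.25, then 9.68, 8.99 and 8.99. The part of a lower share of tubule RNA in the members' fall was not tested. Macrophage markers rose, 7 of 7 in each genotype, beside 14.1% and 13.3% of all genes tested, with medians of 3.36 and 3.48. Endothelial markers had medians of 0.04 and 0.52. Of these, 1 of 7 was lower in wild type, beside 11.8% of all genes, and 1 of 7 higher in Notch3-/-, beside 13.3%.

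Adipocyte transcripts differed between healthy arrays by more than the members did. Over the 8 adipocyte markers Notch3-/- healthy replicate 2 minus replicate 1 had a median of 7.95, from -0.11 to 11.14. The members differed between these arrays by a median of -0.02, from -0.42 to 0.63. The summed adipocyte signal (log2) was 7.23 and 3.61 on wild-type healthy, 1.48 and 6.71 on Notch3-/- healthy, 5.40 and 5.18 on wild-type UUO and 2.61, 5.73 and 6.33 on Notch3-/- UUO arrays. The summed signal of 9 adrenal cortex markers was 7.89 and 8.22 on Notch3-/- UUO replicates 2 and 3 and between -0.76 and 0.71 on the other 7 arrays. It was -0.49 on Notch3-/- UUO replicate 1 and 0.71 and 0.11 on the wild-type UUO arrays. The part of adipocyte or adrenal RNA in the members' levels was not tested.

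**Figure D5:**
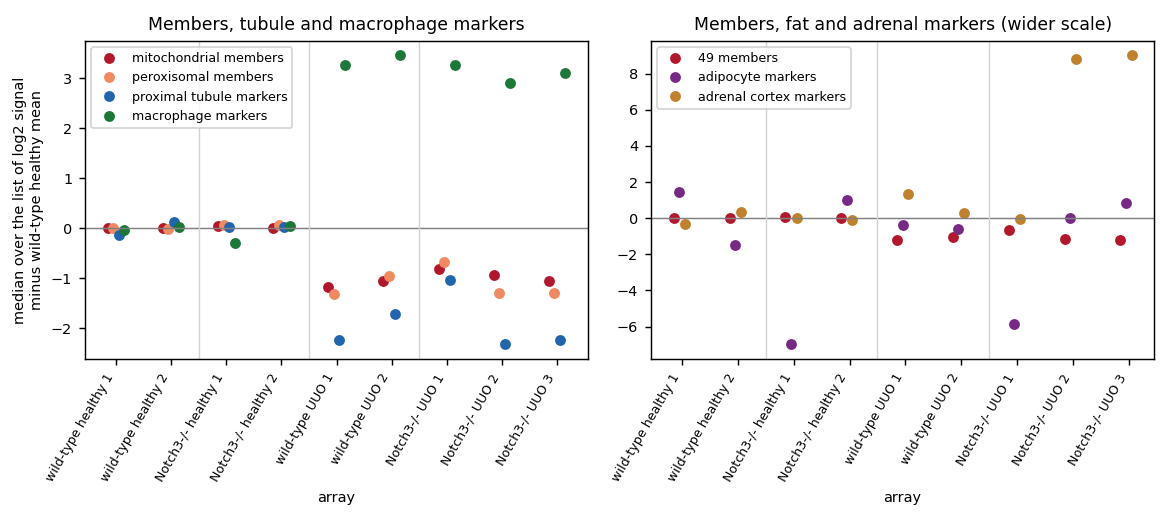
Median over each list of log2 signal minus the wild-type healthy mean (y axis) on each array (x axis), for mitochondrial and peroxisomal members with proximal tubule and macrophage markers (left) and for all members with adipocyte and adrenal cortex markers (right, wider scale). On UUO arrays the members lie between -0.68 and -1.23 over all members, the proximal tubule markers lower on every UUO array, and the adrenal markers at 8.82 and 9.03 on Notch3-/- UUO replicates 2 and 3.

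Other genes of the same pathways were read from lists that hold no member. Of 31 further genes listed for mitochondrial use of fatty acids, branched-chain acids and ketone bodies, 20 fell and 1 rose in wild type, and 24 fell and 1 rose in Notch3-/-. Among all genes tested 11.8% fell and 14.1% rose in wild type, and 13.9% fell and 13.3% rose in Notch3-/-. Not every product on this list lies in mitochondria, Cpt1c and Slc22a5 among them. Slc22a5, the carnitine transporter of the plasma membrane, fell by 2.20 ± 0.24 and 1.24 ± 0.22, the medium-chain synthetase Acsm1 by 2.15 ± 0.27 and 1.59 ± 0.24, and Acad8, a dehydrogenase of valine breakdown, by 1.31 ± 0.22 and 1.12 ± 0.20. The gene that rose in both was Cpt1c, a relative of Cpt1a known from brain, which read -4.23 and -4.33 (wild type) and -4.44 and -4.31 (Notch3-/-) in healthy kidneys, and -2.23 and -2.62 (wild type) and -2.48, -1.84 and -1.79 (Notch3-/-) after UUO. It lay higher on all UUO arrays, by 1.85 ± 0.26 (adjusted p = 0.00525) and 2.33 ± 0.24 (adjusted p = 0.00171).

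Of 38 further genes measured from the list for the peroxisome, 17 fell and 2 rose in wild type, and 27 fell and 2 rose in Notch3-/-. The shares over all genes tested were 11.8% and 14.1% in wild type, and 13.9% and 13.3% in Notch3-/-. Not every product on this list is a peroxisomal protein, Abcd4 among them. The transporter Abcd4 fell by 0.98 ± 0.13 and 0.69 ± 0.11, the isocitrate dehydrogenase Idh1 by 1.15 ± 0.18 and 0.91 ± 0.16, and the carrier Slc25a17 by 0.63 ± 0.13 and 0.82 ± 0.12. Uox, the urate oxidase, went the other way. It was not well above background on any healthy array, so its probe passed the filter through UUO arrays alone. For that reason its p-values are not given, and its place among the genes that rose is no support. Uox read -5.03 and -4.61 on wild-type and -4.98, -4.60 and -4.72 on Notch3-/- UUO arrays, at least 2.30-fold higher in wild type and at least 2.42-fold higher in Notch3-/-. These bounds set the UUO mean against, on each healthy array, the lowest signal well above background or the probe's own signal where higher.

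Of 39 genes of the Ppara axis and of lipid handling, 11 fell and 0 rose in wild type, and 16 fell and 1 rose in Notch3-/-. Over all genes tested 11.8% fell and 14.1% rose in wild type, and 13.9% fell and 13.3% rose in Notch3-/-. Ppara read 3.12 and 3.24 (wild type) and 3.15 and 3.14 (Notch3-/-) in healthy kidneys, and 1.37 and 1.64 (wild type) and 2.26, 1.54 and 1.12 (Notch3-/-) after UUO. Every UUO array lay below every healthy array, with Notch3-/- UUO replicate 1 the highest of them. Ppara fell by 1.68 ± 0.34 (adjusted p = 0.0163) and 1.50 ± 0.31 (adjusted p = 0.0188). Dgat2, which makes triglyceride, fell by 1.91 ± 0.29 and 1.59 ± 0.27, the kinase subunit Prkaa2 by 1.39 ± 0.25 and 1.0 ± 0.22, and the receptor Esrrg, a partner of Ppargc1a, by 0.85 ± 0.16 and 0.65 ± 0.14. Acsl3, a long-chain synthetase, had -0.10 ± 0.15 in wild type, which did not pass, and fell by 0.77 ± 0.14 in Notch3-/-. The gene that rose in Notch3-/- was Angptl4, an inhibitor of lipoprotein lipase, by 1.95 ± 0.55 (adjusted p = 0.0404), named here after its values were seen. Pdk4, the kinase that turns pyruvate away from the citrate cycle, read 1.69 and -0.14 (wild type) and -1.05 and -0.10 (Notch3-/-) in healthy kidneys, and 2.53 and 1.28 (wild type) and -0.51, 2.53 and 2.01 (Notch3-/-) after UUO. Healthy and UUO arrays overlapped in both genotypes, and neither 1.13 ± 1.10 (adjusted p = 0.493) nor 1.91 ± 1.01 (adjusted p = 0.199) passed.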

How the data were processed

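Cortical kidney RNA was measured on 9 one-colour Agilent arrays, 1 per sample. The deposited spot files give an intensity per spot, from which background had been subtracted by Feature Extraction 10.7.3.1, per the file headers, with no normalization between arrays. The submitters' processing notes name version 10.5. The authors' deposited table of log2 values, normalized by a method not stated here, served as an alternative (correlations with the signals of 0.971 to 0.986 per array, column medians of 7.02 to 7.05).

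Outlier spots were dropped, log2 of the processed signal was set relative to each array's 75th percentile over its 43020 non-control spots, and repeated spots were averaged by probe. A probe was kept if it lay well above background on at least 2 arrays (29333 of 39429). RefSeq accessions named 27234 probes through a gene table of GRCm38.p6, and the brightest probe stood for a gene, which left 23877 features for testing, 16603 with a symbol and the rest unnamed. One limma model (version 3.58.1, R 4.3.3) with a mean per group was fitted over all 9 arrays, with contrasts, eBayes and 5 residual degrees of freedom. The Benjamini-Hochberg adjustment ran over all genes tested, at a threshold of 0.05. The steps were tested on simulated data with 200 changed genes. Changes of log2 1 were recovered in 19% of cases in the wild-type and 32% in the Notch3-/- obstruction comparison. Changes of log2 2 were recovered in 61% and 59%. Many more genes were called in the data, so these rates need not hold there, but a difference that did not pass may still be real.

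Every member could be named. Values of every array are given for the 3 members of each class with the smallest p in an obstruction comparison, the 2 with the largest, a set of core genes, and the 5 members with the smallest p between genotypes. From each further pathway list the 4 genes with the smallest adjusted p are named, and Ppara and Pdk4 always; some results under this rule are not reported here. Further members were given by array where their class needed it. The members, lists and roles were chosen with earlier results of these data known. Abcd2, Agxt, Far1, Fgf21, Hao1 and the macrophage marker Cd68 are not analysed here.

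Alternatives were other scalings, the authors' value table, normexp (offset 50) for the background, other probe filters and summaries, other moderation, array weights, a replicate block, the slide as a random block (consensus correlation 0.363) or only slide 4, fits of only the groups compared, a threshold of 0.01 and leaving out arrays.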

Additional observations from a re-analysis of the deposited data

How the results depend on the processing

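No called member reversed under any alternative run, and each member called in an obstruction comparison was lower, except Fabp1, which rose in Notch3-/- kidneys without UUO replicate 1. The counts of called members moved more, and the share of all genes called under each setting is not given beside them. In wild-type kidneys the count of mitochondrial members that fell, 18 in the fit reported, was 6 with a replicate block, 9 with the slide as a random block, 10 with only the groups compared and 4 at a threshold of 0.01, and 3 to 19 when arrays were left out in turn. The peroxisomal count, 16, was 8, 8, 10 and 6 under these settings and 1 to 19 with an array left out. In Notch3-/- kidneys the mitochondrial count, 17, was 11 after quantile normalization, 0 with a replicate block, 1 on slide 4 alone and 4 at a threshold of 0.01, and 0 to 17 with arrays left out, the 0 being the fit without UUO replicates 2 and 3. The peroxisomal count, 17, was 11 after quantile normalization, 0 with a replicate block, 0 on slide 4 alone, 11 with only the groups compared and 3 at a threshold of 0.01, and 0 to 18 with arrays left out. A group of 1 array in these fits was assumed to vary like the other groups. With array weights 5 members differed between the UUO groups, against 0 otherwise. The cause of these shifts was not tested, and some of these fits hold fewer arrays. The labels do not say whether equal replicate numbers mark paired kidneys, so the pairing is unknown, and the replicate block ends many calls. Same-numbered deviations correlated at 0.0966 and 0.0967 in wild type, which with 2 arrays a group is 1 value mirrored, and at 0.158 and 0.0701 in Notch3-/-. Different-numbered deviations in Notch3-/- correlated at -0.0701, -0.167, -0.158 and 0.167. The highest value, 0.167, belonged to healthy replicate 2 with UUO replicate 3.

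Acaa2, Hadh, Acadvl and Acaa1b fell in wild type under all 24 alternatives, and Decr1, Acaa2, Hadh and Pex5 fell in Notch3-/- under 22 of 25. Over all settings the median member lay between -0.71 and -1.24. Taking the percentile over probes above background on all arrays moved the median of all genes from 0.04 to 0.14 in wild type and from -0.07 to 0.08 in Notch3-/-, and normexp moved it to -0.23 in Notch3-/-, where 72.0% of all calls were lower against 51.2%. Under both, every member call was lower.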

Other observations

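Angptl4, Cyp4a14, Cyp4a10 and Plin2 are known as Ppara targets in liver. They were picked from the list of the Ppara axis after their values were seen, and their difference from the 49 members was not tested. Angptl4, an inhibitor of lipoprotein lipase, read 4.11 and 4.02 (wild type) and 2.70 and 1.99 (Notch3-/-) in healthy kidneys, and 5.14 and 4.72 (wild type) and 3.22, 5.22 and 4.45 (Notch3-/-) after UUO. Both Notch3-/- healthy arrays lay below both wild-type healthy arrays, all UUO arrays lay above the healthy arrays of their own genotype, and limma gave 0.86 ± 0.60 (adjusted p = 0.328) in wild type and 1.95 ± 0.55 (adjusted p = 0.0404) in Notch3-/-. Cyp4a14, a fatty acid omega-hydroxylase, read 1.79 and 0.06 (wild type) and 2.62 and 0.94 (Notch3-/-) in healthy kidneys, and 3.49 and 4.34 (wild type) and 0.40, 3.78 and 3.38 (Notch3-/-) after UUO. The wild-type arrays were higher after UUO and the Notch3-/- arrays overlapped, and neither 2.99 ± 1.22 (adjusted p = 0.115) nor 0.74 ± 1.12 (adjusted p = 0.656) passed. Its relative Cyp4a10 had -0.59 ± 0.26 in wild type (adjusted p = 0.139, not passing) and fell by 0.97 ± 0.24 in Notch3-/- (adjusted p = 0.0278). Plin2, which coats lipid droplets, read 3.21 and 2.91 (wild type) and 2.54 and 3.13 (Notch3-/-) in healthy kidneys, and 3.78 and 3.81 (wild type) and 2.99, 3.92 and 3.74 (Notch3-/-) after UUO, and its differences of 0.74 ± 0.34 (adjusted p = 0.154) and 0.71 ± 0.31 (adjusted p = 0.131) did not pass. On Notch3-/- UUO replicate 1, Angptl4, Cyp4a14 and Plin2 lay below the other 4 UUO arrays.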
